A study of Mus musculus with 12 samples.

Results

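Proteasome subunits and protein chaperones were followed in type 2 innate lymphoid cells (ILC2s) of the lung. The members were chosen by gene symbol, as the genes whose names begin with set stems. The stems were those of proteasome subunits (*Psma* to *Psmg*) and heat shock proteins (*Hsp* followed by a digit or a letter from a to e). Those of J-domain proteins (*Dnaj*), the chaperonin ring (*Cct*, with *Tcp1*), BAG cochaperones and protein disulfide isomerases (*Pdia*) were used too, with the lectins *Calr* and *Canx*. This rule found 59 genes among the 3439 genes that the deposited tables list as lower or higher in tdTomato+ ILC2s. Of these, 21 were proteasome genes, 25 were cytosolic or nuclear chaperones, 10 were chaperones of the endoplasmic reticulum (ER) and 3 were mitochondrial chaperones. The level of a gene in these tables is an average over libraries in CPM, the usual unit of counts scaled to the total of the library.

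ILC2s are tissue lymphocytes that respond to epithelial alarm cytokines by releasing type 2 cytokines. All groups came from lungs of male mice with the genotype TIGIT-Cre-ERT2:Rosa26-LSL-tdTomato, and all received papain, a protease allergen, together with tamoxifen. Expression of TIGIT, an inhibitory receptor, drives the tamoxifen-dependent Cre recombinase in these mice, and Cre switches on the red fluorescent protein tdTomato for good, so tdTomato+ cells are those that had expressed TIGIT while tamoxifen was present. The comparison was of labelled (tdTomato+) with unlabelled (tdTomato-) cells from animals treated alike. The labels list 4 RNA libraries of each population, and which of them entered the comparison behind the tables is not stated. ILC2s of untreated animals were not part of the RNA comparison.

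The proteasome is the protease that degrades ubiquitin-tagged proteins. Its 20S core is a barrel of alpha and beta rings with the cutting sites inside, and the 19S cap, built of a ring of ATPases and of non-ATPase subunits, recognizes, unfolds and feeds in the substrate. Chaperones bind unfolded protein and let it fold. In the cytosol HSP70 acts first, with J-domain proteins as partners that deliver clients and stimulate its ATPase, HSP90 matures signalling proteins such as kinases and steroid receptors, and the CCT ring folds actin and tubulin. In the ER, BiP (*Hspa5*) and GRP94 (*Hsp90b1*) do the corresponding work, calnexin and calreticulin hold glycoproteins, and protein disulfide isomerases form disulfide bonds, as secreted cytokines and surface receptors need.

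All 59 members were in the table of genes listed as lower in tdTomato+ ILC2s, and 0 were in the table of genes listed as higher. Most listed genes were lower, namely 2906 of 3439 or 84.5%, so a one-sided list was the usual case and no test was made of it. Of the annotated protein-coding genes that the rule matches, 59 of 147 (40.1%) were listed as lower, and the other 88 were in neither table. Over all 21900 annotated protein-coding genes the share listed as lower was 13.2%. These shares cannot be read as equal chances, because a gene had to pass an average log2 CPM of 5 and a false discovery rate of 0.05 to be listed, and a gene in neither table may have had a low level or a difference that did not pass. The tables hold no value of a single library, so the depth of the libraries and the spread between replicates are unknown, and each level below is 1 pooled value per gene with no error.

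In the same tables, all 9 genes looked up as markers of ILC2s were listed as lower, with *Il1rl1*, which encodes the IL-33 receptor ST2 (one of the surface proteins by which the cells were gated), at an average log2 CPM of 9.98. Of 5 T cell markers 1 was listed, *Cd3g*, as lower at an average log2 CPM of 6.12, whereas 0 of the B cell, natural killer cell, macrophage, granulocyte, epithelial and erythroid markers were listed. The table of higher genes held 10 genes annotated as major satellite repeats. Their pooled average CPM summed to 11.1% of the total, against 0.703% for the 59 members together. These are averages over libraries and not the shares in either population. Because CPM is a share of the total, the levels of the members depend on these repeats, and the part that the repeats or the ILC2 markers have in the members' listing was not tested. In RNA from sorted cells, less RNA per cell of a gene and fewer cells with that RNA cannot be told apart.

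Proteasome genes had the lowest median share of reads per gene of the 4 classes. Their median average log2 CPM was 5.76 over 21 genes, against 6.39 over all 2906 genes listed as lower, and 16 of 21 (76.2%) were below 6, against 33.2% of all lower genes. The proteasome genes have short gene models, however, with a median of 2808 bases of exon against 5194 for all lower genes, and per kb of exon their median was 19.5 CPM, against 15.4 CPM for all lower genes. The median of all lower genes was exceeded by 3 of 21 proteasome genes in average log2 CPM and by 18 of 21 in CPM per kb of exon.

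In the 20S core, the alpha ring, which forms the gate of the barrel, was listed almost whole. The genes *Psma1*, *Psma2*, *Psma3*, *Psma4*, *Psma6* and *Psma7* were listed as lower, 6 of 7, and *Psma5* was in neither table. Their levels ran from 11.8 CPM per kb of exon for *Psma2* to 29.2 CPM per kb for *Psma6*, a 2.47-fold range among subunits that sit in the ring in equal number. By coding length the order was another one, with *Psma1* at 80.0 CPM per kb and *Psma6* at 48.8 CPM per kb, so the range within the ring rests in part on the gene models. Of the beta ring, which carries the protease sites, *Psmb1*, *Psmb3* and *Psmb6* were listed, 3 of 7. *Psmb6*, the caspase-like subunit, had the lowest average log2 CPM of all members, 5.02, just above the limit of 5, and *Psma6* (5.17) and *Psmc1* (5.19) were the next. Of the 3 immunoproteasome subunits, which replace catalytic beta subunits in immune cells, *Psmb8* was listed, at an average log2 CPM of 6.39 and 24.9 CPM per kb of exon, while *Psmb9* and *Psmb10* were in neither table.

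In the 19S cap, 4 of 6 ATPases were listed as lower (*Psmc1*, *Psmc3*, *Psmc4* and *Psmc6*), between 13.0 CPM per kb of exon for *Psmc6* and 22.8 CPM per kb for *Psmc4*. Of the non-ATPase subunits 4 of 11 were listed. They were *Psmd2*, a scaffold subunit of the base, *Psmd4*, a ubiquitin receptor, *Psmd7*, the partner of the deubiquitinase *Psmd14*, and *Psmd8* of the lid, all between 17.4 and 24.7 CPM per kb of exon. *Psmd14* itself was in neither table. The activator caps included the proteasome gene with the highest level. *Psme1*, a subunit of the interferon-inducible activator PA28, had an average log2 CPM of 7.06 and 60.4 CPM per kb of exon, and its partner *Psme2* had 27.4 CPM per kb, a ratio of 2.21 between subunits of the same ring that was 2.65 by coding length. The nuclear activator *Psme3* had 20.8 CPM per kb of exon. *Psme4*, the inhibitor-like *Psmf1* and all 7 assembly chaperones that the rule matches (*Psmg1* to *Psmg4*, *Psmd5*, *Psmd9* and *Psmd10*) were in neither table.

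Cytosolic and nuclear chaperones had a median average log2 CPM of 6.49 over 25 genes and had the largest summed level of the 4 classes, with a summed average of 4218 CPM against 1233 CPM for the 21 proteasome genes. Per kb of exon their median was 24.3 CPM, and 19 of 25 were above the median of all lower genes. They also spanned the widest range, from 9.93 CPM per kb of exon for *Dnajc5*, which encodes a J-domain protein of secretory vesicles, to 258 CPM per kb for *Hspa8*.

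*Hspa8*, the constitutive HSP70 of the cytosol (HSC70), had an average log2 CPM of 10.1, rank 17 of the 2906 lower genes. Of the 8 HSP70-type genes 4 were listed. Heat-inducible *Hspa1b* had 55.4 CPM per kb of exon and its neighbour *Hspa1a* 19 CPM per kb, and *Hspa4*, a nucleotide exchange factor of the HSP110 type, had 30.9 CPM per kb. The constitutive gene was thus 4.66-fold above *Hspa1b* per kb of exon and 7.10-fold above it per kb of coding length. These values of HSP70 genes are uncertain, since 60.3% of the 50-base words of the *Hspa1a* transcript also occur in transcripts of other genes, foremost *Hspa1b*. Counting may divide such reads between the genes. *Hspa1l*, *Hspa2*, *Hspa4l* and *Hspa14* were in neither table.

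Both cytosolic HSP90 genes were listed as lower. Constitutive *Hsp90ab1* had an average log2 CPM of 9.48, rank 46 among the lower genes, and 237 CPM per kb of exon, while inducible *Hsp90aa1* had 8.0 and 65.2 CPM per kb. The ratio of the paralogs was 3.64 per kb of exon and 2.81 per kb of coding length. *Hspa8* and *Hsp90ab1* were the 2 members among the 100 lower genes with the highest average log2 CPM.

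The CCT chaperonin was listed whole, whereas the proteasome was not. The listed proteasome genes lay nearer to the limit of 5, with a median average log2 CPM of 5.76 against 6.65 for CCT. Whether this limit gave the contrast was not tested. All 8 subunit genes (*Tcp1*, *Cct2*, *Cct3*, *Cct4*, *Cct5*, *Cct6a*, *Cct7* and *Cct8*) were in the table of lower genes, with average log2 CPM from 5.97 for *Cct6a* to 7.24 for *Tcp1*. Each ring holds the subunits in equal number. Per kb of exon their levels spread over a 4.39-fold range, from 11.3 CPM for *Cct3* to 49.5 CPM for *Cct2*, and per kb of coding length *Tcp1* was 2.07-fold above *Cct3*. The testis paralog *Cct6b* and *Cct8l1* were in neither table.

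Among J-domain genes of the cytosol and nucleus 9 of 30 were listed as lower. *Dnaja1*, a general partner of HSP70, had the highest average log2 CPM of this group, 7.35, and *Dnajb1*, the heat-inducible partner, had 6.97 and the highest level per kb of exon, 39.0 CPM. The lowest average log2 CPM of the class, 5.41, was that of *Dnajc9*, a histone chaperone. *Dnaja2*, *Dnajb6*, *Dnajc2*, *Dnajc5*, *Dnajc7* and *Dnajc8* lay in between, at average log2 CPM from 6.11 to 6.34. Of the BAG cochaperones, which release clients from HSP70, *Bag1* (66.8 CPM per kb of exon) and *Bag6* (12.3 CPM per kb) were listed and *Bag2*, *Bag3*, *Bag4* and *Bag5* were not. None of the 12 further genes with HSP symbols that the rule matches, among them the small heat shock proteins *Hspb1*, *Hspb6* and *Hspb8*, was listed.

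**Figure D1:**
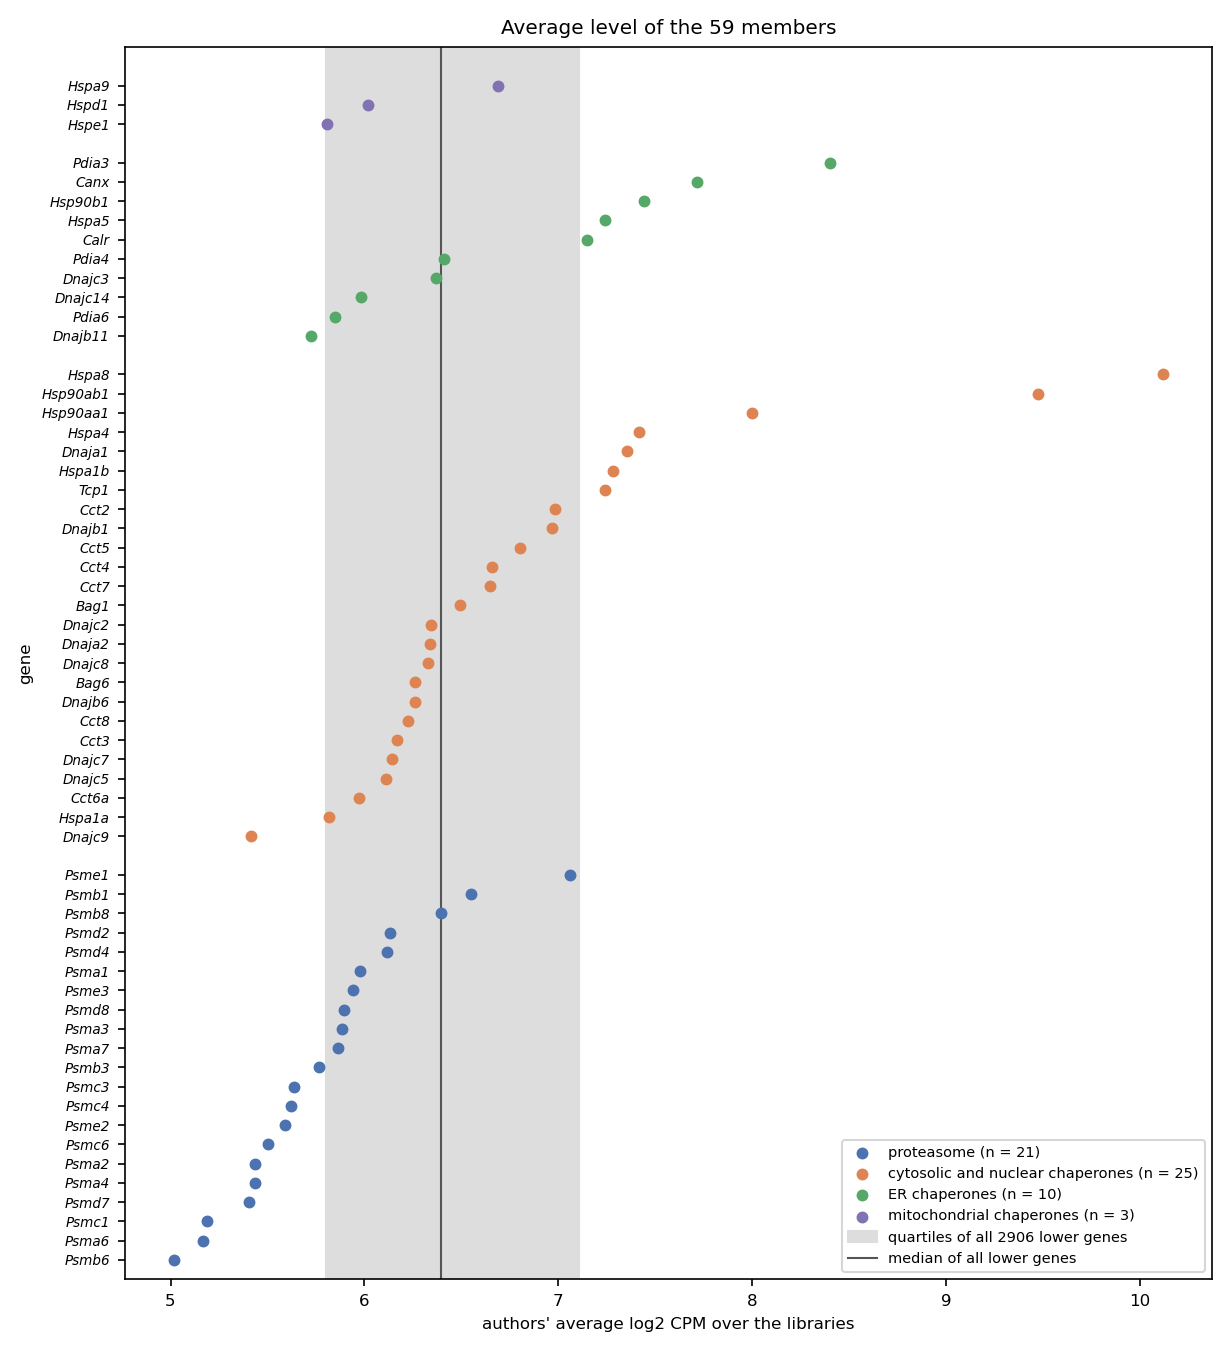
Average log2 CPM over the libraries (horizontal axis) of each of the 59 members, ordered within the 4 classes, with the median (line) and the range between the quartiles (grey) of all 2906 genes listed as lower. *Hspa8* (10.1) and *Hsp90ab1* (9.48) stand apart on the right, and 16 of 21 proteasome genes lie below 6.

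Heat shock factor binds inverted repeats of the unit GAA. To see which members carry such letters near their start site, RefSeq promoter windows on GRCm38.p6 were searched on both strands for a head-to-head pair of units, GAANNTTC. A window runs from 250 bases before the start site to 50 bases from it on, and 49 of the 59 members had at least 1 window. The pair was found in 5 of 19 cytosolic or nuclear chaperone genes with a window (26.3%), in 0 of 18 proteasome genes and in 0 of 10 ER genes. It was in 8.44% of 17492 protein-coding genes, in 6.85% of 2279 other lower genes and in 12.3% of 390 higher genes. Both mitochondrial genes with a window carried it too. The stretches are shown with 10 flanking bases, 5′ to 3′ on the strand of the gene, with the GAA and TTC units in capitals.
*Cct2* (chr10:117063400-117063427, minus strand): cccaagtgaaGAAgtTTCtagcaggacc
*Dnaja1* (chr4:40722334-40722361, plus strand): aaagcctctaGAAaaTTCtacgaggctc
*Dnajb6* (chr5:29735842-29735869, plus strand): tcagctccgaGAAtcTTCcggaacgcta
*Hspa1a* (chr17:34972243-34972270, minus strand): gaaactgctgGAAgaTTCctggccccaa
*Hspa1b* (chr17:34959325-34959352, minus strand): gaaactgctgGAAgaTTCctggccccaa
*Hspd1* (chr1:55088054-55088081, minus strand): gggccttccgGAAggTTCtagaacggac
*Hspe1* (chr1:55088054-55088081, plus strand): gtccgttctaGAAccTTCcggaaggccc
The stretches of *Hspd1* and *Hspe1* are a single element, read on opposite strands. It lies between the *Hspe1* start site and 1 annotated *Hspd1* start site, while another *Hspd1* start site lies beyond that of *Hspe1*. The stretches of *Hspa1a* and *Hspa1b* are the same 28 letters at different places. The 5 cytosolic genes therefore give 4 distinct stretches. A run of 3 alternating units (GAANNTTCNNGAA or TTCNNGAANNTTC, which contain the pair) was in *Dnajb6*, *Hspd1* and *Hspe1* and in 0.595% of protein-coding genes. The tail-to-tail pair TTCNNGAA was in 3 of 19 cytosolic or nuclear genes (15.8%), in 2 of 18 proteasome genes (11.1%, *Psmd4* and *Psme3*), in both mitochondrial genes with a window and in 0 of 10 ER genes, against 8.73% of protein-coding genes. A match describes letters and is not a measured binding site.

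ER chaperones had the highest median of the 4 classes in average log2 CPM, 6.78 over 10 genes, and in CPM per kb of exon, 35.6. Per kb of coding length their median of 63.4 CPM was below that of the cytosolic and nuclear chaperones, 69.4 CPM, so the order of these classes depends on the length used. Of the 20 annotated ER genes that the rule matches, 10 were listed as lower (50%). No ER member shared over 10% of its transcript sequence with other genes, unlike 7 of 21 proteasome genes and 7 of 25 cytosolic or nuclear chaperones.

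Levels per kb of exon differed widely among the ER members. *Pdia3* (ERp57), which forms disulfides in glycoproteins held by the lectins, was highest with an average log2 CPM of 8.40 and 108 CPM per kb of exon. Per kb of exon its lectin partners followed, *Calr* (calreticulin) with 49.3 CPM and *Canx* (calnexin) with 44.7 CPM, and then *Hsp90b1* (GRP94), with 43.1 CPM, *Hspa5* (BiP), with 35.8 CPM, and the isomerase *Pdia4*, with 35.5 CPM. In average log2 CPM the order was another one, with *Canx* at 7.71, *Hsp90b1* at 7.44, *Hspa5* at 7.24 and *Calr* at 7.15. The remaining ER members were *Dnajb11*, a BiP partner (16.3 CPM per kb of exon), *Dnajc3*, a BiP partner that also inhibits the kinase PERK (16.1), *Pdia6*, an isomerase that dampens the stress sensor IRE1 (15.4), and *Dnajc14* (9.65). The step between *Pdia4* and these genes was present per kb of exon but not per kb of coding length, where *Pdia4* had 44.3 CPM, *Dnajc3* 54.6 CPM and *Dnajb11* 49.2 CPM. *Pdia3* was 7.0-fold above *Pdia6* per kb of exon and 5.17-fold per kb of coding length. Cytosolic *Hspa8* was 7.21-fold above its ER counterpart *Hspa5* per kb of exon. In neither table were *Hspa13*, *Pdia2*, *Pdia5*, *Dnajb9*, *Dnajb12*, *Dnajb14*, *Dnajc1*, *Dnajc10*, *Dnajc16* and *Dnajc18*.

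**Figure D2:**
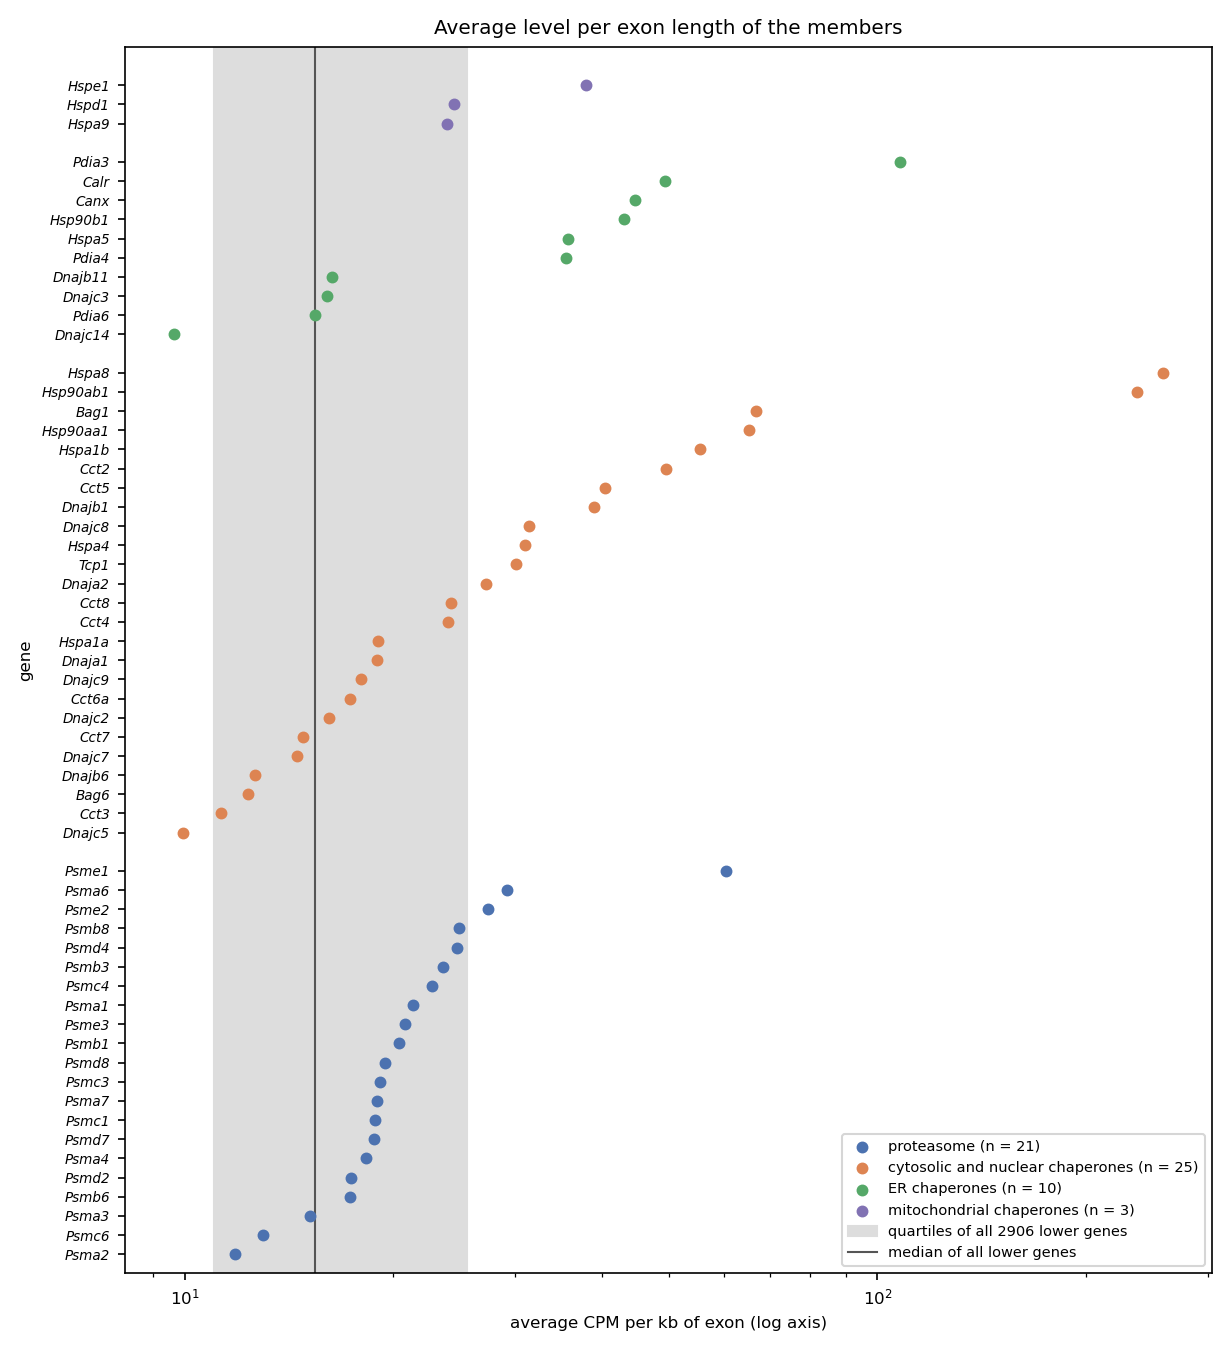
Average CPM per kb of exon (horizontal log axis) of each member, ordered within the 4 classes, with the median (line) and the range between the quartiles (grey) of all genes listed as lower. *Hspa8* (258) and *Hsp90ab1* (237) are highest, 6 of 10 ER genes lie at 35.5 or more, and 18 of 21 proteasome genes lie above the median of all lower genes, 15.4.

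Many ER chaperone genes are known to carry an ER stress element, through which the factors ATF6 and XBP1 act when unfolded protein builds up. The element was searched as CCAAT and CCACG with 9 free bases between them (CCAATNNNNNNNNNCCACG), on both strands. It was found in 6 of 10 ER members (60.0%), in 0 of 19 cytosolic or nuclear chaperones and in 0 of 18 proteasome genes. Of all 17492 protein-coding genes with a window 29 carried it (0.166%), and of the 2279 other lower genes 1 did (0.0439%), namely *Hnrnpa3*, an RNA-binding protein, which is named because it was the only one. Genes in neither table carried it too, among them *Creld2*, *Syvn1* and *Ero1b* of the ER partner list. The stretches are shown because the symbol rule did not use these letters, which were found, among members with a window, in ER members alone, with *Pdia3*, *Pdia4*, *Dnajb11* and *Dnajc14* lacking a match. Capitals mark CCAAT and CCACG, or their complements ATTGG and CGTGG where the element lies on the other strand.
*Calr* (chr8:84847065-84847103, minus strand): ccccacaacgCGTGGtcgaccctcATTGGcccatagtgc
*Canx* (chr11:50325790-50325828, minus strand): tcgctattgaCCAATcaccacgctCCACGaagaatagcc
*Dnajc3* (chr14:118937817-118937855, plus strand): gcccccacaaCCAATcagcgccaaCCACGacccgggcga
*Hsp90b1* (chr10:86705523-86705561, minus strand): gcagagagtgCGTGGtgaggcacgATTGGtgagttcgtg
*Hsp90b1* (chr10:86705628-86705666, minus strand): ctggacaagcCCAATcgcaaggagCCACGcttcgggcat
*Hspa5* (chr2:34772015-34772053, plus strand): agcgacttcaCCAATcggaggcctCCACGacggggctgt
*Pdia6* (chr12:17266481-17266519, plus strand): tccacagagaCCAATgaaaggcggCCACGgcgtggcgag
The first base of these 7 elements lay between 212 and 65 bases before the start site, and *Hsp90b1* carried 2 of them in opposite directions. All 4 of *Hspa5*, *Hsp90b1*, *Calr* and *Canx* had the element, as did *Dnajc3* and *Pdia6*, whereas *Pdia3*, the ER member with the highest level per kb, did not. Next below *Pdia3* per kb of exon were *Calr*, *Canx*, *Hsp90b1* and *Hspa5*, which all had it. *Pdia4* and *Dnajb11*, which lacked it, lay above *Dnajc3* and *Pdia6*, which had it, so the order was mixed. CCACG alone was in 9 of 10 ER members (90.0%) and in 40.4% of protein-coding genes, and CCAAT alone was in 90.0% and 42.3%.

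The window of *Hspa5*, the best known target of this element, is shown whole, with its 4 CCAAT boxes (on either strand) and its CCACG in capitals; it spans chr2:34771840-34772139 on the plus strand of GRCm38.p6.
*Hspa5* promoter: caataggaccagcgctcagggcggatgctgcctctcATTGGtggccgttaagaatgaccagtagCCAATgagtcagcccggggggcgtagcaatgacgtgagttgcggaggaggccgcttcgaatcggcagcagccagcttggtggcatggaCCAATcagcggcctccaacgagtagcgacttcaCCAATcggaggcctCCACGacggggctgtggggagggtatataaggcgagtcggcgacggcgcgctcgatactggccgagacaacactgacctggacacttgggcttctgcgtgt
The CCAAT box nearest to the start site is the one joined to CCACG in the spelled distance. The window had 1 exact match to the full element and 0 matches to the heat shock pair.

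**Figure D3:**
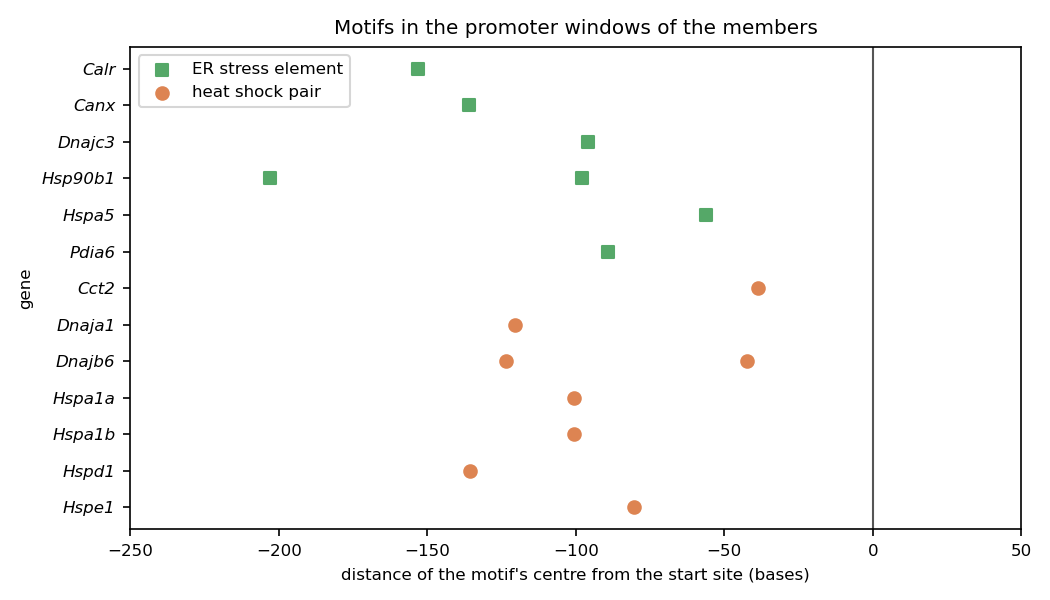
Distance of each motif's centre from the start site in bases (horizontal axis, start site at 0) for members with an ER stress element (green squares) or a head-to-head heat shock pair (orange circles). The ER stress element was in 6 and the pair in 7 of 49 members with a window, against 0.166% and 8.44% of protein-coding genes. No gene had both, and this was not tested. *Hsp90b1* has 2 ER stress elements, and the 2 points of *Dnajb6* are 1 element seen from 2 annotated start sites.

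CCAAT was in 9 of 18 proteasome genes with a window (50%), against 42.3% of protein-coding genes and 41.5% of other lower genes, and CCACG was in 8 of 18 (44.4%), against 40.4% and 53.0%. The letters TGACNNNGC, the core of antioxidant response elements bound by NRF1 and NRF2 (*Nfe2l1* and *Nfe2l2*), which are known to drive proteasome genes, were in 2 of 18 (*Psmb6* and *Psmc6*, 11.1%), against 14.8% of protein-coding genes and 18.2% of other lower genes. The GC box GGGCGG was in 11 of 18 proteasome genes (61.1%) and in 40 of 49 members (81.6%), against 75.7% of other lower genes and 49.2% of all protein-coding genes, so the members' share was close to that of the other lower genes.

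Mitochondrial chaperones were listed at 3 of 8. *Hspa9*, the matrix HSP70 (mortalin), had an average log2 CPM of 6.69 and 23.9 CPM per kb of exon, and the chaperonin *Hspd1* (HSP60) with its lid *Hspe1* (HSP10) had 24.5 and 38.0 CPM per kb. The spans of *Hspd1* and *Hspe1* overlap on opposite strands of chromosome 1. Of their 50-base words, 44.8% and 36.1% also occur in transcripts of other genes, so their levels are uncertain. The J-domain genes *Dnaja3*, *Dnajc11*, *Dnajc15*, *Dnajc19* and *Dnajc30* were in neither table.

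Partner genes outside the symbol rule were looked up from lists of known components. Of 15 regulators and cochaperones of HSP70 and HSP90, 8 were listed as lower and 0 as higher. They were *Fkbp5* (average log2 CPM 7.09), an HSP90-bound immunophilin, *Cdc37* (6.96), which brings kinases to HSP90, *Hsph1*, *St13*, *Sugt1*, *Fkbp4*, *Stip1* and *Ptges3*, whereas the heat shock factors *Hsf1* and *Hsf2* were in neither table. Prefoldin, which hands nascent actin and tubulin to CCT, was listed at 2 of 6, with *Pfdn5* at an average log2 CPM of 6.78 and *Vbp1*. The CCT ring was listed at 8 of 8 and its delivery complex at 2 of 6, a difference that was not tested. A prefoldin gene in neither table may have had a level below the limit for listing. Over all annotated protein-coding genes 13.2% were listed as lower.

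Of 16 further genes of ER folding and ER stress, 6 were listed as lower and 0 as higher. *Ern1*, the stress sensor IRE1, had an average log2 CPM of 7.43, the oxidase *Ero1a* 7.32 and the isomerase *P4hb* 7.16, and *Atf4*, *Edem1* and *Manf* were the others. *Xbp1*, *Atf6*, *Eif2ak3* (PERK) and *Ddit3* (CHOP) were in neither table, so 1 of the 3 classical stress sensors was listed. Proteasome partners were listed as lower at 13 of 19, with the ubiquitin genes *Ubb* at an average log2 CPM of 8.96 and *Rps27a* at 8.78, the segregase *Vcp*, the ubiquitin receptor *Adrm1*, the core maturation protein *Pomp* and *Nfe2l2* among them, and *Nfe2l1* was in neither table. Of 7 mitochondrial chaperone and protease genes, the protease *Lonp1* was the single one listed (average log2 CPM 5.35, lower). Across the 5 lists no gene was listed as higher. Of all listed genes 84.5% were lower, so this was the usual case. Over all annotated protein-coding genes 13.2% were listed as lower, and the difference between this share and those of the lists was not tested.

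How far a member's level can be told from that of related sequences was read from the transcripts. Each member's transcripts (GENCODE M21) were cut into words of 50 bases, and words found in transcripts of other genes were counted. In 27 members no word was shared, in 16 over 10% and in 6 over 50%. *Hspa8* shared 73.2% of its words, and 11 pseudogenes held some of them. *Hspa1b* shared 62.3%, *Psme2* 59.3% (foremost with *Psme2b*), *Hsp90aa1* 58.5% and *Psmb3* 55.8%. The levels of these genes are uncertain to the extent that counting discards or divides such reads, while those of *Hsp90ab1* (4.49%) and of the ER members are less so. In addition, 23 members have a gene on the opposite strand that overlaps their span, and since the use of strand in counting is not stated, reads of such pairs cannot be told apart where the exons overlap.

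**Figure D4:**
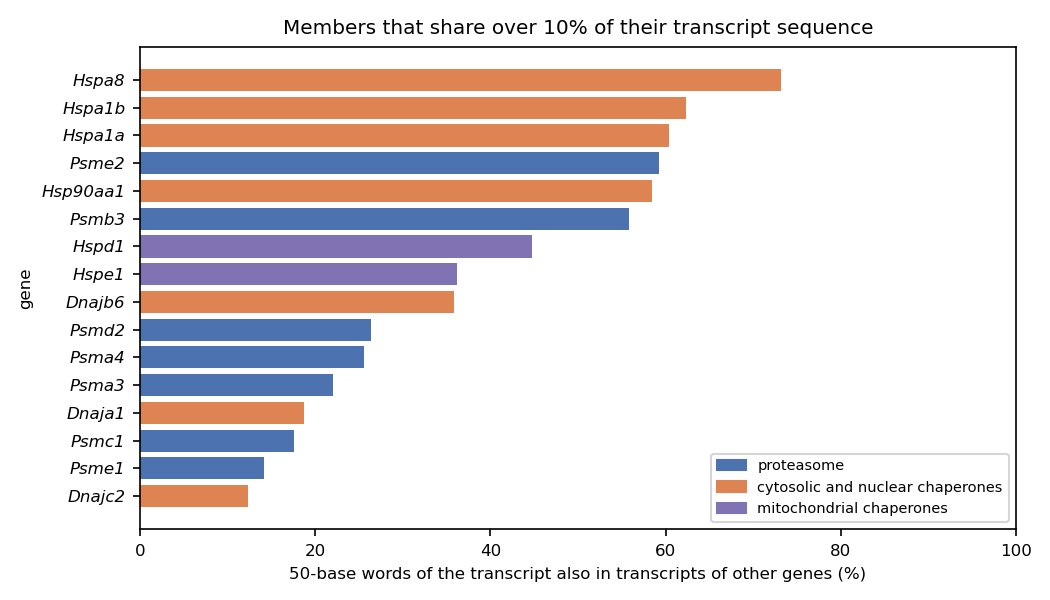
Share of 50-base words of a member's transcript with the longest coding sequence that also occur in transcripts of other genes (horizontal axis, percent). The 16 members above 10% are shown, coloured by class. *Hspa8* is highest with 73.2%, and no ER chaperone is among them.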

How the data were processed

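RNA libraries of tdTomato- and tdTomato+ lung ILC2s (4 of each) were made with a stranded SMART-Seq type kit. By the study's methods, the authors checked the quality of the reads with FASTP, aligned them with STAR, counted them with featureCounts and compared the populations with edgeR. Versions, and the libraries that entered the fit, are not given in the sources used here. The authors' 2 deposited tables hold 1 average log2 CPM per gene over libraries, beside log2 fold changes, likelihood ratios, p-values and false discovery rates. The latter columns are the outcome of the authors' own comparison and were not used. Columns with values of single samples that had to be left aside: 0. Without values per library the planned limma test was not run, no interval could be given and depth is unknown. The 4 ATAC-seq libraries are not analysed here.

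Members were taken by symbol and described by counts, medians and CPM per kb, with the union of exons (main) or the longest coding length from GENCODE M21 (GRCm38), which is not the annotation the authors used and was matched by Ensembl identifier for 2905 of 2906 lower and 531 of 533 higher genes. Genes named with values were the 3 members with the highest and the 3 with the lowest levels of each class, those at the ends of each complex and the highest of each partner list. *Hspa1b*, *Hspa4*, *Pdia4*, *Cdc37*, *Ero1a*, *P4hb* and *Rps27a* fall outside this rule and were chosen after their values were seen. The members, classes and lists were chosen with earlier results of these data known. The annotated genes and promoter windows are those of RefSeq on GRCm38.p6, and 49 of 59 members had a window (not *Cct4*, *Dnajc2*, *Dnajc5*, *Hsp90aa1*, *Hsp90ab1*, *Hspa8*, *Hspa9*, *Psmb1*, *Psmc3* and *Psmd7*). The motif search was tested on simulated windows and found 1600 of 1600 planted motifs. Python 3.11.15, pandas 2.3.3, numpy 2.4.6, scipy 1.17.1 and matplotlib 3.10.9 were used.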

Additional observations from a re-analysis of the deposited data

How the results depend on the processing

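No test was made, so the settings below change values and no call. A minimum average log2 CPM of 6 left 36 of the 59 members and one of 7 left 13, and 31 were textbook subunits of the 20S, 19S, CCT, HSP90 and HSP70 groups. Per kb of coding length the medians were 63.4 CPM for ER, 69.4 for cytosolic and nuclear, 50.6 for mitochondrial and 61.1 for proteasome members and 51.3 for all lower genes, so that the mitochondrial class passed from above to below the latter. Joining the mitochondrial genes gave the cytosolic class a median average log2 CPM of 6.42. In a setting chosen after seeing the data, members that share over 10% of their words were left out. The medians were then 6.42 for the cytosolic, 6.69 for the mitochondrial and 5.75 for the proteasome class in average log2 CPM. In CPM per kb of exon they were 25.7, 23.9 and 19.9. The mitochondrial values are those of *Hspa9* alone, because *Hspd1* and *Hspe1* were left out. With 3 alternating heat shock units the share was 5.26% of cytosolic and nuclear and 0.595% of protein-coding genes. Before the start site only, the pair was in 7.25% of protein-coding genes, and counted by window (chosen after seeing the data) in 7.21%. The other 13 of 32 alternative values, with the ER stress element among them, stayed within the limits set for a move. No paired analysis was possible because the tables hold no value of a single library, and leaving out single replicates, the replicate block and the pseudocount were not run for the same reason. Reading the C-terminal residues of the proteins was not run.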
